A study of Mus musculus with 18 samples.

Results

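Genes of the extracellular matrix, of fibroblasts and of vessels were described in lymphomas and thymus of mice that carry a stabilised form of beta-catenin. The set holds 42 genes, taken by their symbols: collagens, basement membrane proteins, matrix glycoproteins and proteoglycans, a matrix protease with its inhibitors, and proteins of fibroblasts, mural cells and endothelial cells. Of these, 41 had a probe set annotated to a single symbol, and each gene was read from 1 probe set, the one with the highest mean over all arrays. Fbn1, which encodes fibrillin-1, was not analysed here. A filter on dim signal (above an intensity of 109 on at least 5 arrays) left 34 of the 41, tested among 14020 of 18194 genes. The 7 that did not pass were Nid2, Sparcl1, Lum, Pdgfrb, Tagln, Cdh5 and Vwf, and they are described by their values without a test.

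The 18 mice are called independent in the design text, and total RNA of each was hybridized to 1 Affymetrix mouse expression array. The first group held 8 CD4Cre-Ctnnbex3 mice with lymphoma, the second 5 mice of the same genotype before T-cell transformation, and the third 5 control mice. Controls are LckCre animals in the design text and wild type in the sample labels, and which is right was not settled. In both Ctnnbex3 groups Cre is driven by Cd4 regulatory sequences, which are active in thymocytes, and removes the exon of the beta-catenin gene that carries its degradation signals. Either thymocytes or tumour masses were collected, so the tissue taken may differ between groups, and the age of the mice is not given in the sources used here. Values are linear intensities that the authors made with dChip, with a floor set at 53.5, and differences are given on the log2 scale. A gene is said to rise or fall where limma's adjusted p was under 0.05 over all genes tested.

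The extracellular matrix of lymphoid organs is laid down mainly by fibroblasts and other mesenchymal cells, while basement membranes also receive products of endothelial and epithelial cells. Fibrillar collagens give tensile strength, collagen IV and laminins form the sheet under epithelium and around vessels, and small proteoglycans such as biglycan and decorin bind the fibrils. Thymocytes make up nearly all cells of a normal thymus, and its capsule, septa and vessels hold the matrix. In such bulk RNA, fewer cells of a type and less RNA per cell cannot be told apart.

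Promoters of 4 genes are shown because TCF/LEF factors are the DNA-binding partners of beta-catenin. Igfbp7 and Bgn had the largest differences in lymphomas, Col1a2 had the largest rise before transformation, and Col4a1 shares its start region with Col4a2. The windows come from RefSeq (GRCm38.p6), are written 5′ to 3′ on the strand of the gene and run from 250 bases before to 50 bases after the annotated start. The first is Igfbp7 (chr5:77407996-77408295, minus strand), the second Bgn (chrX:73483351-73483650, plus strand), the third Col1a2 (chr6:4505368-4505667, plus strand), and the last Col4a1 (chr8:11312777-11313076, minus strand). Capitals mark the letters CTTTGA of the TCF/LEF core and the letters CCAAT, on either strand.
Igfbp7: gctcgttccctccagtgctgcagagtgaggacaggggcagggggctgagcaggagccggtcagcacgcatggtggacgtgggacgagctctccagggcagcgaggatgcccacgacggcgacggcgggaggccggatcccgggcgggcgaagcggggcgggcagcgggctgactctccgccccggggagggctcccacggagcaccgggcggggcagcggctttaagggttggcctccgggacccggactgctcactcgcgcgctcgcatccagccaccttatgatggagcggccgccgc
Bgn: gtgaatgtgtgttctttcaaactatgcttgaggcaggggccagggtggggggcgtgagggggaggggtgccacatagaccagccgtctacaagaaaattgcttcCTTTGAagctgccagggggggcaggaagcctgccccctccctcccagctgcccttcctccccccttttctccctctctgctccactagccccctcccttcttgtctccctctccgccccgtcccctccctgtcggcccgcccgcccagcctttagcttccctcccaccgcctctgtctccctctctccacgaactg
Col1a2: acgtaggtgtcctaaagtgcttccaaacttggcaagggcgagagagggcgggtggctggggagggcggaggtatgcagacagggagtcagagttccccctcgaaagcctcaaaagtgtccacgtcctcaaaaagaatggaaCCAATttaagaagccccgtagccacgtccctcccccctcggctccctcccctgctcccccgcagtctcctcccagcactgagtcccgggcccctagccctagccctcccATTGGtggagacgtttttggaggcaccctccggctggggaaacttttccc
Col4a1: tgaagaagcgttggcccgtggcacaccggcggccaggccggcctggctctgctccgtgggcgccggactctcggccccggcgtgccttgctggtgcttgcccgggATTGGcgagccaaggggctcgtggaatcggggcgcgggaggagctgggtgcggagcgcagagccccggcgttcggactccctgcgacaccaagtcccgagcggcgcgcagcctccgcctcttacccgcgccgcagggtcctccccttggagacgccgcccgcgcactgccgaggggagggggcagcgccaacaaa
A TCF/LEF core stood in the Bgn window at position -146 counted from the annotated start. The Col1a2 window held CCAAT at -109 and its reverse complement at 1, and the Col4a1 window held that reverse complement at -145. None of the searched letters was found in the Igfbp7 window or in that of Sparc, and the Col3a1 window held TATAAA at -117. RefSeq windows were at hand for 25 of the 42 genes, 29 windows in all. CTTTGA, searched on both strands, was in 13.8% of the 29 windows and in 16.0% of 32851 mouse promoter windows of the same length. CCAAT was in 27.6% and 37.4%, TATAAA in 10.3% and 13.6%, and the AP-1 site TGANTCA in 3.45% and 7.81%. No motif was thus more frequent in the windows of these genes than in mouse promoters at large, and a match is a description of letters, not a site.

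The 6 called genes with the largest differences between lymphomas and thymus before transformation, Igfbp7, Bgn, Sparc, Fn1, Col3a1 and Mgp, were all higher in lymphomas. By role, 5 of 7 matrix glycoproteins and proteoglycans tested, 2 of 5 fibrillar collagens, 3 of 8 basement membrane genes and none of 3 collagen VI genes rose. Against mice before transformation, 13 of the 34 tested genes rose and 2 fell in lymphomas, where 16% of all genes tested rose and 18.3% fell (34.4% in either direction). The median log2 difference was 0.28 over the 41 genes, against 0 over all genes. Without the filter on dim signal 11 of the 41 rose and 1 fell, where 12.3% of all genes rose and 14.1% fell. In 4 genes, Igfbp7, Bgn, Mgp and Col5a1, every lymphoma lay above every mouse before transformation, as in 6.67% of all genes tested, and no gene of the set lay wholly below (8.84%).

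Set against control thymus, lymphomas showed 17 rises and 2 falls among the 34, where 17.4% of all genes tested rose and 22.7% fell (40.1% in either direction). Over the 41 genes the median difference was 0.30, against 0 over all genes. Without the filter 15 of the 41 rose and 1 fell, where 13.8% and 18% of all genes did. Igfbp7, Bgn, Mgp, Sparc and Col1a2 were higher in every lymphoma than in every control, as were 8.21% of all genes tested, and no gene of the set was lower in every lymphoma (12%). The comparisons of lymphoma share the same 8 tumours, so their results are not independent.

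Before transformation few of these genes differed from control. Col1a2, Nid1, Igfbp7 and Col6a3 rose and Timp2 fell, which makes 4 rises and 1 fall among 34 genes, where 4.36% of all genes tested rose and 6.18% fell (10.5% in either direction). Without the filter the counts were again 4 and 1, of 41 genes, where 3.25% and 4.58% of all genes passed. Col1a2, Nid1 and Col6a3 did not overlap between the groups upwards (4.32% of all genes tested) and Timp2 did not downwards (6.24%). The median difference over the 41 genes was 0.00.

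**Figure D1:**
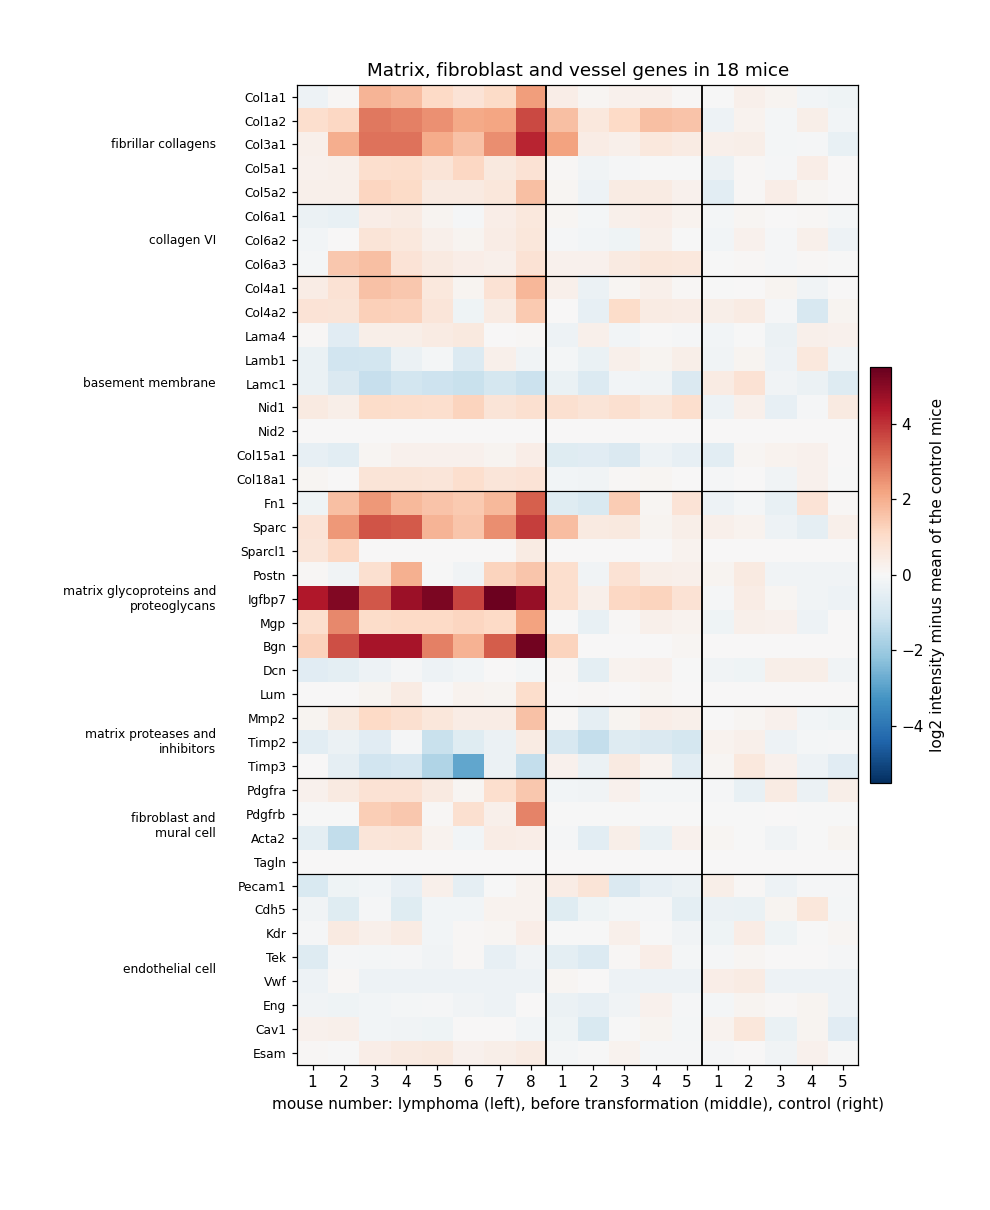
Colour gives the log2 intensity of 41 genes (rows, by role) minus the mean of the control mice, in lymphomas 1 to 8 (left), mice before transformation 1 to 5 (middle) and controls 1 to 5 (right). Igfbp7 and Bgn were raised in all 8 lymphomas, Col1a1, Col1a2, Col3a1, Col5a2 and Sparc most in lymphomas 3, 4 and 8, and the endothelial rows at the bottom stayed close to the control level in most mice.

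Igfbp7 showed the largest measured difference of the set in lymphomas, where that of Bgn is a lower bound. It encodes a secreted protein of the insulin-like growth factor binding family that is found in vessel basement membranes, and lies at chr5:77349240-77408045 (GRCm38.p6). Its intensity was 1233 in the lowest lymphoma, 3124 at the median and 4776 in the highest. Mice before transformation had 216, 140, 253, 267 and 201, and controls had 111, 153, 126, 102 and 93.9. All lymphomas were far above all other mice, and 4 of the 5 mice before transformation were above all controls, the exception being mouse 2. Lymphomas exceeded mice before transformation by 3.72 (SE 0.30, limma adjusted p = 1.59e-06), a 13.2-fold difference, and controls by 4.59 (SE 0.29, limma adjusted p = 3.17e-08), a 24.0-fold difference. The gene had already risen by 0.87 before transformation (SE 0.19, limma adjusted p = 0.0119). The lymphoma differences passed the threshold under each of 29 alternatives, with log2 values of 1.56 to 4.15 and 1.98 to 4.75. The rise before transformation did not pass when all 3 groups shared 1 fit (limma adjusted p = 0.12) or with mice 1 and 2 alone (0.458).

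A second Igfbp7 probe set (1437804_at) gave a smaller difference. Its intensities were 155 to 362 in lymphomas with a median of 268, against 215, 228, 196, 239 and 229 before transformation and 159, 162, 175, 175 and 178 in controls. On it lymphomas overlapped mice before transformation, with a difference of 0.20 (limma adjusted p = 0.375), and exceeded controls by 0.58 (limma adjusted p = 0.0118). One more (1423585_at) lay at the floor in every control and every mouse before transformation and reached 182 in the highest lymphoma. The size of the Igfbp7 difference is thus that of the brightest probe set.

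Bgn encodes biglycan, a small leucine-rich proteoglycan bound to collagen fibrils, and lies at chrX:73483601-73495936. Its intensity was 128 in the lowest lymphoma, 578 at the median and 2132 in the highest. Before transformation mouse 1 had 126, mouse 5 had 58.2 and the other 3 were at the floor, as were all 5 controls. Every lymphoma was above every other mouse, though lymphoma 1 exceeded mouse 1 before transformation by very little. The difference was at least 8.74-fold against mice before transformation (log2 3.13, SE 0.57, limma adjusted p = 0.000852) and at least 10.5-fold against controls (log2 3.40, SE 0.55, limma adjusted p = 0.000206). No single left-out mouse ended these calls. A second tested probe set, at the floor in all mice of both other groups, rose by at least 1.70.

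Sparc encodes osteonectin, a collagen-binding glycoprotein made by fibroblasts and endothelial cells. It had 135 in the lowest lymphoma, 450 at the median and 1148 in the highest, against 266, 115, 117, 89.8 and 101 before transformation and 98.5, 93.3, 67.3, 58.0 and 98.9 in controls. Lymphomas stood above all controls, while mouse 1 before transformation was above lymphomas 1 and 6. The lymphoma difference was 1.82 against mice before transformation (SE 0.46, limma adjusted p = 0.00719) and 2.46 against controls (SE 0.43, limma adjusted p = 0.000435). Of the other tested Sparc probe sets 1448392_at rose by at least 2.23 and 2.60 in these comparisons, and 1458204_at gave -0.22 and -0.33 without passing.

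Fn1 encodes fibronectin, which links cells to collagen. Its intensity was 139, 536 and 1611 at the lowest, median and highest lymphoma, against 102, 90.2, 427, 178 and 271 before transformation and 133, 151, 123, 273 and 172 in controls. Lymphoma 1 lay among the other mice, and the groups overlapped. Fn1 rose by 1.57 (SE 0.48, limma adjusted p = 0.0216) against mice before transformation and by 1.71 (SE 0.42, limma adjusted p = 0.00453) against controls. The first of these calls was lost without mouse 1 (0.0624) or mouse 2 (0.059) before transformation.

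Mgp encodes matrix Gla protein, an inhibitor of calcification made by vascular smooth muscle and fibroblasts. It had 288 in the lowest lymphoma, 325 at the median and 936 in the highest, against 147, 114, 158, 181 and 174 before transformation and 129, 184, 176, 125 and 152 in controls. All lymphomas lay above all other mice, with lymphomas 2 and 8 well above the remaining 6. Rises of 1.39 (SE 0.27, limma adjusted p = 0.00141) and 1.41 (SE 0.27, limma adjusted p = 0.000815) were found against mice before transformation and against controls.

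The remaining glycoproteins and proteoglycans did not pass or were not tested. Postn, which encodes periostin, gave 0.23 against mice before transformation and at least 0.66 against controls, with 3 of the 5 controls at the floor. Lum, which encodes lumican, was at the floor in all controls and reached 103 in lymphoma 8. Sparcl1, a relative of Sparc, was above the floor in lymphomas 1, 2 and 8 and in mouse 5 before transformation. For Dcn, which encodes decorin, the brightest probe set gave -0.25 against mice before transformation (limma adjusted p = 0.207) and -0.26 against controls (0.171).

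The Dcn probe sets disagreed. Probe set 1449368_at, named here after its values were seen, had 131 in the lowest lymphoma, 490 at the median and 1595 in the highest. On it mice before transformation had 189, 53.5, 106, 134 and 133, and controls had 88.4, 102 and 3 values at the floor. The lymphomas were thus above all controls, and all but lymphoma 6 were above all mice before transformation. This probe set rose by 1.98 (limma adjusted p = 0.00801) against mice before transformation and by at least 2.74 (limma adjusted p = 0.000483) against controls.

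**Figure D2:**
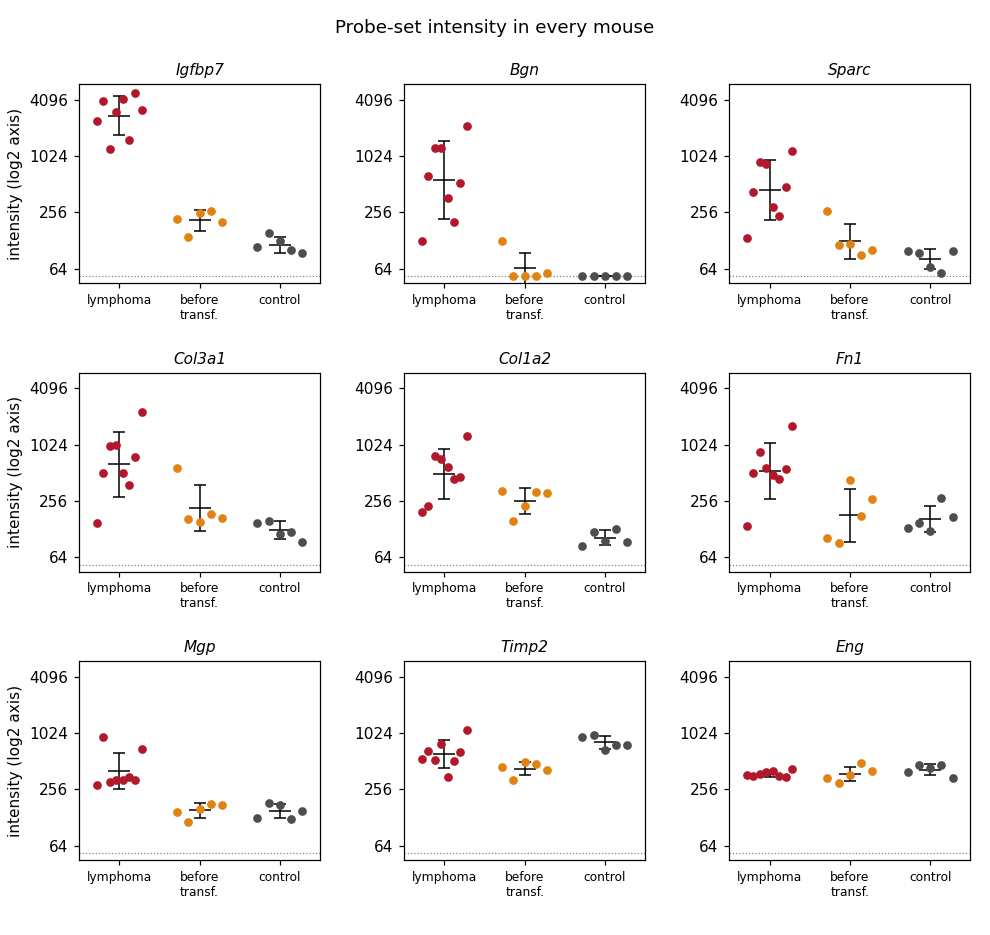
Intensity on a log2 axis in every mouse for 9 genes, with lymphomas left, mice before transformation in the middle and controls right, mouse 1 being the leftmost point of its group. The horizontal bar is the mean of log2 values, whiskers are 1 SD, and the dotted line is the floor of 53.5; Igfbp7, Bgn and Mgp do not overlap between lymphomas and the other mice, while the Eng values of all groups overlap.

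On the probe sets used, all 5 fibrillar collagens rose in lymphomas against controls. Of them 2 rose in lymphomas against mice before transformation, and 1 rose before transformation against controls. Of all genes tested, 17.4%, 16% and 4.36% rose in these comparisons. Col1a2 encodes the second chain of collagen I, the main fibril-forming collagen, and lies at chr6:4505618-4541543. Its intensity was 195 in the lowest lymphoma, 525 at the median and 1272 in the highest. Mice before transformation had 326, 157, 224, 323 and 311, and controls had 84.2, 120, 96.5, 130 and 93.8. Both Ctnnbex3 groups lay above all controls, and lymphomas 1 and 2 lay within the range before transformation. Col1a2 rose before transformation by 1.32 (SE 0.22, limma adjusted p = 0.0018), a 2.50-fold difference, and in lymphomas against controls by 2.26 (SE 0.37, limma adjusted p = 0.000224), a 4.80-fold difference. The step from the state before transformation to lymphoma was 0.94 and did not pass (limma adjusted p = 0.0711), but did without lymphoma 1 (0.0178) or lymphoma 2 (0.0315). The second tested Col1a2 probe set also rose before transformation, by at least 0.61 (limma adjusted p = 0.0288).

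Col3a1 encodes the chain of collagen III, which forms the reticular fibres of lymphoid organs. It had 150 in the lowest lymphoma, 629 at the median and 2295 in the highest, against 580, 165, 152, 185 and 170 before transformation and 150, 158, 115, 120 and 94.1 in controls. Lymphoma 1 stood at the level of controls, and mouse 1 before transformation stood among the lymphomas. Col3a1 rose by 1.56 (SE 0.52, limma adjusted p = 0.0306) in lymphomas against mice before transformation and by 2.34 (SE 0.47, limma adjusted p = 0.00113) against controls. The first call was lost without any one of lymphomas 3 and 4 (0.0525 and 0.0534) or mice 2, 3, 4 and 5 before transformation (0.0631 to 0.0721).

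Col5a1 encodes a chain of collagen V, which starts fibrils of collagen I. Its intensity was 134, 195 and 249 at the lowest, median and highest lymphoma, against 119, 99.7, 111, 114 and 112 before transformation and 90.1, 118, 110, 146 and 114 in controls. All lymphomas lay above all mice before transformation, and control 4 lay above lymphomas 1 and 2. The rises were 0.74 (SE 0.16, limma adjusted p = 0.0023) and 0.70 (SE 0.17, limma adjusted p = 0.00416). Col1a1, the other chain of collagen I, rose by 1.07 against controls (limma adjusted p = 0.0282), with 132 to 790 in lymphomas and 135 to 195 in controls. That call was lost without lymphoma 4 (0.0504) or controls 1, 4 or 5 (0.0551 to 0.0636). The Col1a1 difference from mice before transformation, 0.88, passed only without lymphoma 1 (0.0135) or 2 (0.0322) among the left-out mice. Col5a2, which lies 24624 bases from Col3a1 on chromosome 1, rose by 0.76 against controls (limma adjusted p = 0.0193). That call was lost without control 1 (0.0621), with the floor at the 40th percentile and with the mean of all probe sets of the gene. The other Col5a2 probe set, 1450625_at, had 64.4 to 163 in lymphomas with a median of 123. Its controls lay within that range, at 100 to 145 with a median of 118. This probe set fell by 0.75 before transformation against controls (limma adjusted p = 0.00784), where the brighter one gave 0.19.

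Collagen VI forms beaded filaments around cells, and of its 3 chains Col6a3 was called. Col6a3 had 139 in the lowest lymphoma, 236 at the median and 478 in the highest, against 179, 178, 212, 235 and 226 before transformation and 149, 160, 144, 159 and 147 in controls. All mice before transformation lay above all controls, and the lymphomas covered the range of both. Col6a3 rose before transformation by 0.44 (SE 0.11, limma adjusted p = 0.0296) and in lymphomas against controls by 0.72 (SE 0.25, limma adjusted p = 0.0323). The first call was lost without any one of mice 3, 4 and 5 before transformation or controls 1, 2, 3 and 5 (0.0503 to 0.0829), and the second without lymphoma 8 or any one control (0.0504 to 0.0676).

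Col6a2 had 192 to 346 in lymphomas with a median of 271, against 206, 190, 181, 260 and 209 before transformation and 193, 249, 202, 258 and 176 in controls. The groups overlapped throughout. Its differences of 0.37 (limma adjusted p = 0.0796) and 0.33 (0.113) in lymphomas passed with arrays centred on their median (0.0144 and 0.0153), with quantile normalization (0.0151 and 0.0142) and without lymphoma 1 (0.0276 and 0.0399). Col6a1, its neighbour on chromosome 10, gave -0.02 and 0.14 and did not pass.

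Of the 8 basement membrane genes tested, 3 rose and 1 fell in lymphomas against mice before transformation, and 4 rose and 1 fell against controls, where 16% and 18.3%, and 17.4% and 22.7%, of all genes tested did. Col18a1, whose product releases endostatin, had 177 in the lowest lymphoma, 278 at the median and 327 in the highest, against 156, 150, 181, 184 and 177 before transformation and 166, 178, 151, 205 and 170 in controls. Lymphomas 1 and 2 lay among the other mice and the other 6 above them. The rises were 0.60 (SE 0.15, limma adjusted p = 0.00777) and 0.57 (SE 0.15, limma adjusted p = 0.00869). Col15a1, its close relative, rose by 0.59 against mice before transformation (limma adjusted p = 0.0161) and differed from controls by 0.03. Col15a1 was 105 to 149 before transformation and 122 to 211 in controls, a difference of -0.56 that did not pass (limma adjusted p = 0.0562) but did without control 1 (0.00789) or mouse 4 before transformation (0.0493).

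Nid1 encodes nidogen, which joins laminin to collagen IV. It had 104 in the lowest lymphoma, 152 at the median and 195 in the highest, against 153, 133, 151, 128 and 158 before transformation and 68.6, 99.8, 60.2, 80.0 and 115 in controls. Both Ctnnbex3 groups were higher than controls, apart from lymphoma 2, which lay below control 5, and lymphoma 1, which exceeded it by little. Nid1 rose before transformation by 0.81 (SE 0.18, limma adjusted p = 0.0114) and in lymphomas against controls by 0.82 (SE 0.18, limma adjusted p = 0.00272). Lymphomas and mice before transformation differed by 0.01 (SE 0.15). Another Nid1 probe set, 1416808_at, which was not tested, was at the floor in all mice of both other groups and reached 222 in lymphomas, with a median of 108 and lymphomas 1 and 6 at the floor. Nid2 was at the floor in all 18 mice.

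Col4a1 and Col4a2 encode the main collagen IV chains and are transcribed away from each other from overlapping starts on chromosome 8, at chr8:11198423-11312889 and chr8:11312805-11449287. Col4a1 had 164 to 519 in lymphomas, 118 to 176 before transformation and 128 to 164 in controls. It rose by 0.88 (limma adjusted p = 0.0178) and 0.96 (0.00737) in lymphomas. Col4a2 had 92.5 to 295, 79.5 to 219 and 58.9 to 146 in the same order. Its differences were 0.50, which did not pass (limma adjusted p = 0.179), and 0.80, which did (0.0313) but not without lymphomas 3, 4 or 8 or controls 3 or 4 (0.0556 to 0.0994).

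Of the 3 laminin chains, 1 fell and none rose in lymphomas on the probe sets used. Lama4, the chain of vessel laminins, differed by 0.18 and 0.14 in lymphomas and did not pass, and Lamb1 gave -0.50 (limma adjusted p = 0.0987) and -0.44 (0.144). Lamb1 fell by 0.60 without lymphoma 7 (0.0384). Dimmer probe sets of both genes, which were not tested, were highest in lymphomas. Lamb1 1424114_s_at was above the floor in lymphomas 3, 4 and 8 alone (86.3, 86.6 and 109), and Lama4 1424808_at was above it in 6 of 8 lymphomas (up to 81.2), in mouse 3 before transformation (59.4) and in no control. Lamc1, the common gamma chain, had 215 to 411 in lymphomas, 298 to 476 before transformation and 319 to 914 in controls. It fell by 0.54 (limma adjusted p = 0.0223) and 0.99 (limma adjusted p = 0.00317) in lymphomas, the first call being lost without mouse 1, 3 or 4 before transformation (0.0515 to 0.0658) and with arrays centred on their median (0.0807).

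The Lamc1 probe sets went opposite ways against controls. Probe set 1423885_at had 187 to 334 in lymphomas, 476 to 710 before transformation and 154 to 197 in controls. Mice before transformation thus stood above all others on it. It rose by 1.65 before transformation against controls (limma adjusted p = 8.26e-06), fell by 1.05 in lymphomas against mice before transformation (limma adjusted p = 0.000204) and rose by 0.60 in lymphomas against controls (limma adjusted p = 0.00621). The brighter probe set gave -0.45 before transformation (limma adjusted p = 0.395). No direction of Lamc1 against controls was therefore common to its probe sets, and both probe sets fell from the state before transformation to lymphoma.

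**Figure D3:**
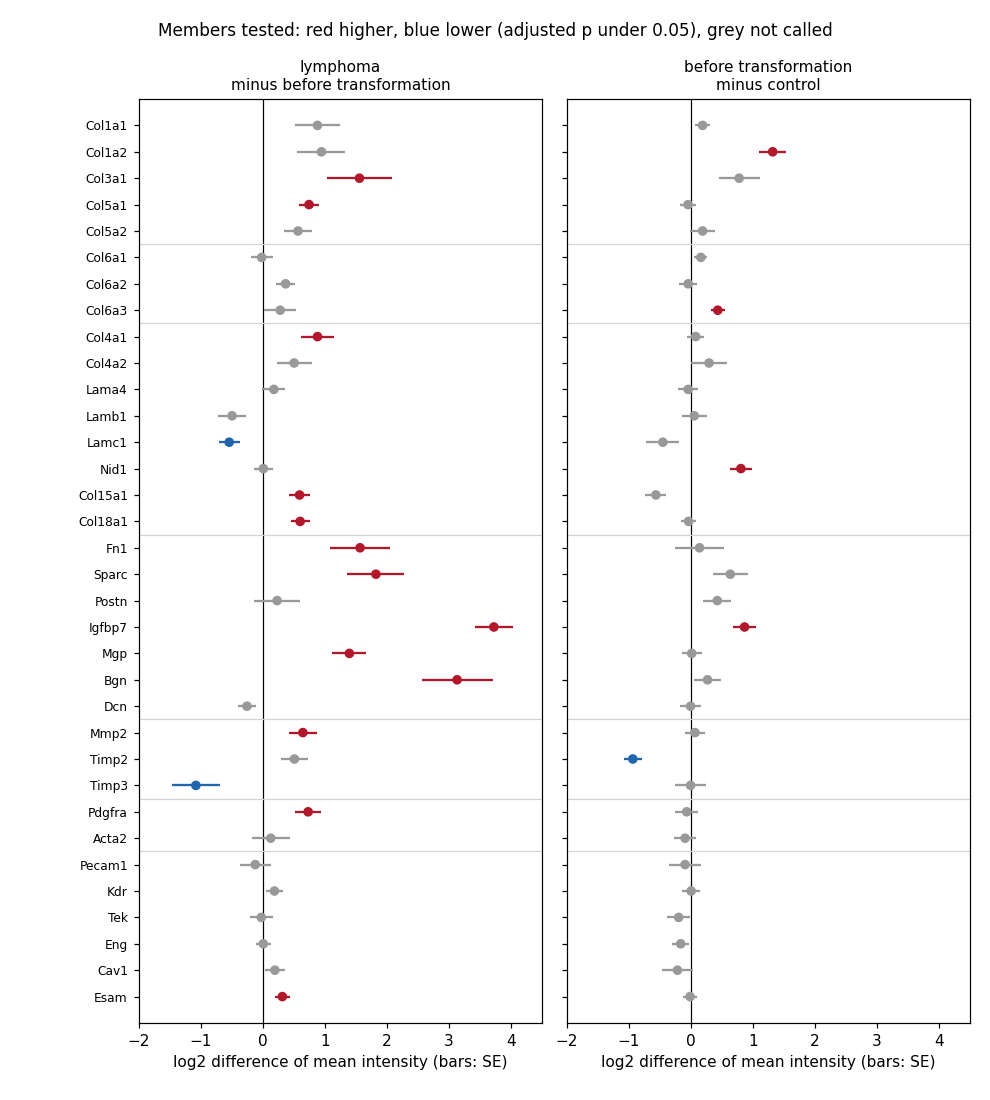
Log2 difference of mean intensity (points) with its SE (bars) for the 34 genes tested, lymphoma minus before transformation (left) and before transformation minus control (right). Red and blue points passed an adjusted p under 0.05, 13 higher and 2 lower on the left and 4 higher and 1 lower on the right.

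Mmp2 encodes gelatinase A, which cleaves collagen IV and denatured collagens. It had 182 in the lowest lymphoma, 244 at the median and 504 in the highest, against 172, 117, 181, 210 and 199 before transformation and 169, 178, 194, 150 and 138 in controls. All lymphomas but the first stood above all controls, and lymphoma 1 lay within both other groups. Mmp2 rose by 0.64 (SE 0.22, limma adjusted p = 0.0357) and by 0.71 (SE 0.21, limma adjusted p = 0.0124). The first call was lost without lymphoma 3 or 4 or mice 1, 2 or 3 before transformation (0.0564 to 0.0965). Both calls were lost with the mean of all probe sets of the gene. The other Mmp2 probe set, 1439364_a_at, had 96.2 to 437 in lymphomas with a median of 155. On it mice before transformation had 148 to 162 with a median of 157, and controls 120 to 156 with a median of 143.

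Timp2 encodes an inhibitor of metalloproteinases that also takes part in activating pro-MMP2 at the cell surface. It lies at chr11:118301061-118355411. Its intensity was 346 in the lowest lymphoma, 595 at the median and 1104 in the highest, against 448, 325, 500, 474 and 417 before transformation and 938, 981, 671, 764 and 773 in controls. All mice before transformation were below all controls, and the lymphomas covered both ranges. Timp2 fell before transformation by 0.93 (SE 0.14, limma adjusted p = 0.00103), to 0.524 of the control level. The call held under all 26 alternatives, with log2 differences of -1.33 to -0.67, and all 5 tested Timp2 probe sets fell, by 0.70 to 1.66. In lymphomas the brightest probe set did not pass against controls (-0.42, limma adjusted p = 0.131), though it did without lymphoma 8 (0.027), and 3 of its other 4 tested probe sets fell. Against mice before transformation it differed by 0.51 (limma adjusted p = 0.0843), and passed without lymphoma 5 (0.0222).

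Timp3, an inhibitor bound to the matrix, had 104 to 759 in lymphomas, 504 to 1056 before transformation and 487 to 1123 in controls. It fell by 1.08 in lymphomas against either group (limma adjusted p = 0.0412 and 0.0362). The first call was lost without lymphomas 3, 4, 5 or 8 or mice 1, 3 or 4 before transformation (0.0542 to 0.099). The second was lost without lymphomas 3, 5 or 8 or controls 1, 2, 3 or 4 (0.05 to 0.0972). Probe set 1419089_at of the gene rose by 0.49 against controls (limma adjusted p = 0.0125), so its probe sets also went opposite ways.

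**Figure D4:**
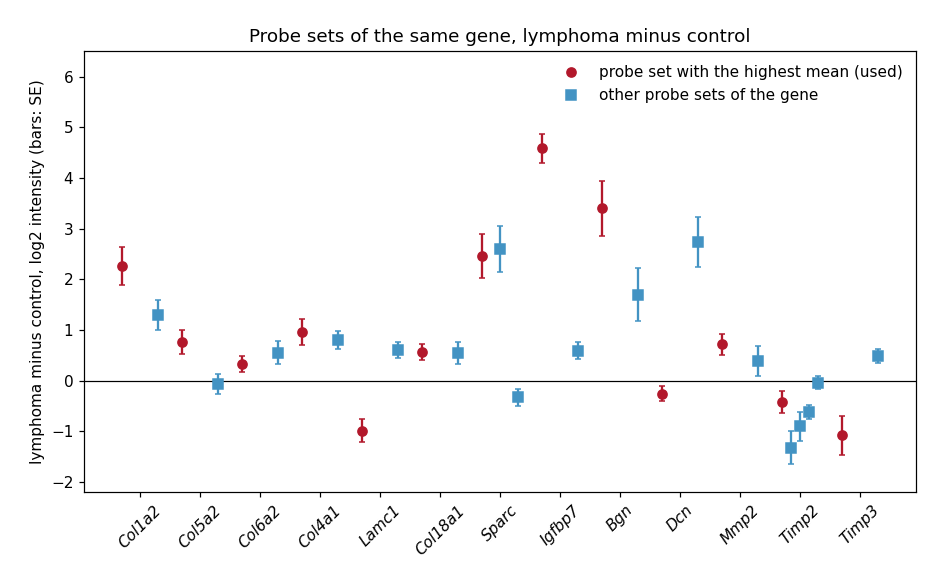
Lymphoma minus control on the log2 scale, with the SE as bars, for the genes with more than 1 tested probe set. Red circles are the brightest probe set, used for the gene, and blue squares are its other tested probe sets; Lamc1 and Timp3 have probe sets called in opposite directions and the dimmer Dcn probe set lies at 2.74.

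In all, 25 of the 41 genes had more than 1 probe set, and 13 had more than 1 that was tested. Opposite calls between probe sets of a gene occurred in 2 genes, Lamc1 and Timp3, in lymphomas against controls, and in none of the 13 in the other comparisons.

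Of the fibroblast and mural cell genes, Pdgfra was called in lymphomas. It encodes the platelet-derived growth factor receptor that marks fibroblasts, and had 94.3 in the lowest lymphoma, 138 at the median and 250 in the highest. Mice before transformation had 79.5, 77.5, 105, 81.6 and 81.2, and controls had 83.8, 67.5, 120, 71.0 and 111. Most lymphomas were above most other mice, with overlap at lymphomas 1 and 6. Pdgfra rose by 0.73 (SE 0.20, limma adjusted p = 0.0131) and by 0.67 (SE 0.23, limma adjusted p = 0.0287), the second not without control 1, 2 or 4 (0.0592 to 0.0818). Neither call held with the floor at the 40th percentile (0.077 and 0.0959).

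Pdgfrb, the receptor of pericytes and fibroblasts, lay at the floor in 4 of 5 controls and in every mouse before transformation. It was 358 in lymphoma 8, 150 in lymphoma 4 and 137 in lymphoma 3, and below 100 in the others, where lymphomas 1 and 2 were at the floor. It did not pass the filter. Acta2, the smooth muscle actin of mural cells and myofibroblasts, had 88.8 to 371 in lymphomas with a median of 280, against 218, 155, 285, 179 and 271 before transformation and 250, 226, 199, 223 and 254 in controls. The groups overlapped, and the differences were 0.13 (SE 0.31) and 0.04 (SE 0.29) in lymphomas and -0.09 (SE 0.17) before transformation. Tagln, another smooth muscle gene, was at the floor in all 18 mice.

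The 8 endothelial genes mark the lining of vessels. Of the 6 tested, none passed in lymphomas against controls or before transformation against controls, and Esam rose in lymphomas against mice before transformation. Of all genes tested, 40.1%, 10.5% and 34.4% were called in these comparisons, in either direction. How this group differed from the collagens was not tested. Eng encodes endoglin, a co-receptor for transforming growth factor beta. It had 347 to 424 in lymphomas with a median of 367, against 337, 302, 365, 487 and 401 before transformation and 389, 470, 433, 467 and 344 in controls. The ranges lay within each other, with differences of 0.01 (SE 0.12) and -0.15 (SE 0.10) in lymphomas.

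Esam, an adhesion molecule of endothelial tight junctions, had 208 in the lowest lymphoma, 265 at the median and 299 in the highest, against 193, 208, 239, 197 and 199 before transformation and 199, 213, 180, 248 and 206 in controls. Most lymphomas were slightly higher than most other mice. Its rise of 0.31 against mice before transformation (limma adjusted p = 0.0473) was lost in 10 of the 13 fits that left out 1 mouse (0.0533 to 0.104). The difference of 0.30 from controls (limma adjusted p = 0.0518) passed without lymphoma 1, lymphoma 2 or control 4 (0.0212 to 0.0317), with arrays centred on their median (0.00431) and with quantile normalization (0.00433).

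Pecam1 (CD31), Kdr (a receptor of vascular endothelial growth factor), Tek (the angiopoietin receptor) and Cav1 (the coat protein of caveolae) differed by -0.22 to 0.19 in lymphomas against either group, and none passed, though with mice 1 and 2 alone Pecam1 fell by 1.11 against mice before transformation (limma adjusted p = 0.0344). Their log2 differences before transformation were -0.21 to 0.01. Pecam1 is also made by some leukocytes. Cdh5, the cadherin of endothelial junctions, was 53.5 to 96.2 in lymphomas, 53.5 to 80.9 before transformation and 65.6 to 131 in controls. Its other probe set, 1433956_at, which was not tested either, had 64.9 to 118 in lymphomas with a median of 94.1, 53.5 to 60.3 before transformation and 53.5 to 65.7 in controls. On that probe set all lymphomas were above all mice before transformation, and all but lymphoma 2 were above all controls. Vwf, the clotting factor stored in endothelium, was at the floor in 7 of 8 lymphomas and in 3 mice of either other group. A p that misses the threshold does not show that vessels were equally frequent, and the SE of the tested differences was 0.10 to 0.26.

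The lymphomas differed among themselves more in these genes than in most. The median SD over mice was 0.46 for the 34 genes and 0.29 for all genes tested in lymphomas, 0.31 and 0.24 before transformation, and 0.26 and 0.19 in controls. Lymphoma 8 was the highest tumour for 17 of the 39 genes that varied among lymphomas, and lymphoma 1 the lowest for 14. How often each tumour was highest or lowest over all genes was not counted, so these 2 counts may not be particular to the set. Lymphomas 3, 4 and 8 were the 3 highest for 11 of the 34 tested genes (32.4%), an order found in 4.82% of all genes tested. This grouping was chosen after the values were seen. The 11 genes were Col1a1, Col1a2, Col3a1, Col5a2, Col6a2, Col4a1, Col4a2, Fn1, Sparc, Bgn and Mmp2, and the untested Pdgfrb had the same order. Igfbp7, whose lowest lymphoma was number 3, and Mgp, whose highest was number 2, did not follow it.

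Other genes of matrix biology were counted by list. Among 12 tested genes of collagen processing, 3 rose and 1 fell in lymphomas against mice before transformation, and 6 rose against controls, where 16% and 18.3%, and 17.4%, of all genes tested did. Serpinh1, the collagen chaperone HSP47, had 116 to 412 in lymphomas with a median of 199, against 113, 93.2, 86.3, 108 and 101 before transformation and 77.1, 99.4, 66.8, 73.3 and 62.8 in controls. All lymphomas were above all other mice, and the rise against mice before transformation was 1.17 (limma adjusted p = 0.00421). Loxl1, a cross-linking oxidase, and P4hb, a subunit of prolyl hydroxylase, rose by 0.83 and 0.55 in that comparison. Plod2, a lysyl hydroxylase of collagen, was the only gene of the list to pass before transformation, with 3012, 3207, 788, 1114 and 1343 against 234, 207, 121, 108 and 146 in controls. The groups lay far apart, and the rise was 3.38 (limma adjusted p = 0.000134), a 10.4-fold difference. In lymphomas Plod2 was 471 to 1488, which is 1.18 below mice before transformation (limma adjusted p = 0.0201) and 2.20 above controls (limma adjusted p = 2.98e-05).

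Among 20 tested genes of other matrix proteins, 4 rose and 2 fell in lymphomas against mice before transformation, and 1 rose and 2 fell before transformation. Of all genes tested, 16% rose and 18.3% fell in the first comparison, and 4.36% rose and 6.18% fell in the second. Fbln1, which encodes fibulin-1, had 885 in the lowest lymphoma, 1162 at the median and 2025 in the highest, against 883, 433, 313, 304 and 290 before transformation and 68.0, 84.5, 75.2, 96.2 and 101 in controls. No group overlapped another. Fbln1 rose by 2.26 before transformation (limma adjusted p = 0.00025), by 1.64 from there to lymphoma (limma adjusted p = 0.000346) and by 3.89 in lymphomas against controls (limma adjusted p = 1.84e-09). Fbln2, which encodes fibulin-2, fell by 1.14, 1.03 and 2.18 in the same comparisons, and Emilin1, an elastic fibre glycoprotein, by 0.84 before transformation and by at least 1.19 and 2.03 in lymphomas.

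The counts of the other lists stand beside the same 16% of all genes tested that rose and 18.3% that fell in lymphomas against mice before transformation. Of 14 tested fibroblast and mural genes, 4 rose and 1 fell in lymphomas against mice before transformation. Among those that rose were Cxcl12, a chemokine, by 0.72 and Fstl1, a follistatin-like glycoprotein, by 1.10. Notch3, a Notch receptor of this list, fell by 1.12, and which cells its signal came from was not tested. Before transformation Mcam fell by 0.93 and Notch3 by 0.40. Of 13 other endothelial genes tested, Prox1, a lymphatic endothelial factor, rose by 1.44 in that lymphoma comparison, and Icam2 and Erg fell by 1.33 and 0.56. Of 6 other proteases and inhibitors, Timp1 rose, by 0.55, and of 7 growth factors Tgfb3 rose by 0.84 and Angpt2 fell by 1.04.

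Markers of some other cells differed as well, in a comparison where 16% of all genes tested rose and 18.3% fell (34.4% in either direction). In lymphomas against mice before transformation, 5 of 10 macrophage markers rose (C1qa by 2.74, Lyz2 by 2.80, Cd68 by 2.01, C1qb by 2.07 and C1qc by 1.99) and Cd14 fell by 1.19. The summed intensity of the list was 7117 to 22212 in lymphomas, highest in lymphoma 8, against 1979 to 5266 before transformation and 3389 to 5458 in controls, and no marker of the list was at the floor throughout a group. Of 7 T-lineage markers 5 fell, with sums of 10161 to 17636 in lymphomas, 23585 to 31362 before transformation and 30445 to 34435 in controls. Of 8 thymic epithelial markers 3 fell in lymphomas. Of 4 listed genes of lymph node stroma 2 had a probe set with a single symbol and 1 was tested. That gene, the chemokine Cxcl13, rose by 3.20, and it does not stand for the list. The granulocyte list had 3 rises and 1 fall of 9 against mice before transformation. Before transformation 5 of its 9 fell against controls, where 6.18% of all genes tested fell. In lymphomas against mice before transformation no B-cell marker of 6 and no adipose marker of 2 passed, 1 of 4 erythroid markers rose and 1 of 4 muscle markers fell. In lymphomas against controls 6 of 10 macrophage markers rose and 2 fell. In that comparison 6 of 7 T-lineage, 6 of 9 granulocyte and 3 of 8 thymic epithelial markers fell and none rose, and 1 of 6 B-cell and 1 of 2 adipose markers rose. There 1 of 4 erythroid markers rose and 1 fell, and 1 of 4 muscle markers fell. Of all genes tested, 17.4% rose and 22.7% fell in that comparison. The part of these cells in the matrix results was not tested.

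Sex also moved with the groups. Xist exceeded the Y-linked Eif2s3y in 7 of 8 lymphomas, in none of the 5 mice before transformation and in 2 of 5 controls, and lymphoma 4 had both transcripts (1110 and 313). With this signal as a covariate and lymphoma 4 left out, 2 of the 15 calls against mice before transformation remained, Igfbp7 (2.55, limma adjusted p = 0.0137) and Bgn (4.27, limma adjusted p = 0.0356). That fit called 4.07% of all genes tested, in place of 34.4%. In it lymphoma 3 was the only lymphoma with more Eif2s3y than Xist. The other 13 kept their sign without passing, with log2 differences of 0.38 (Esam) to 2.80 (Sparc) for the 11 higher ones, -0.83 for Lamc1 and -1.05 for Timp3. Sex and lymphoma can therefore hardly be told apart in that comparison. Against controls 16 genes were called with the covariate, 15 higher and 1 lower, in place of 19, where 31% of all genes were called.

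With mice 1 and 2 of each group alone, the counts were 3, 4 and 2 called in lymphomas against mice before transformation, lymphomas against controls and before transformation against controls, where 18.3%, 28.3% and 7.62% of all genes were called. Within those mice Col3a1 differed by -0.17 in lymphomas against mice before transformation, and Col1a1 by -0.24 against controls. Among the mice numbered 3 and up, 17, 19 and 4 genes were called in the same comparisons, where 41.6%, 41.7% and 9.07% of all genes were. Lymphomas 1 and 2 were those with the lowest fibrillar collagen Col1a2 and Col1a1 values. Both lay below the other 6 lymphomas in 12 of the 34 tested genes (35.3%), and in 24.2% of all genes tested. That order is thus not particular to the collagens.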

How the data were processed

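Groups and mouse numbers come from the sample labels. Each deposited intensity is a linear signal per probe set, which the authors computed in dChip according to the design text. The dChip version, its model and how arrays were scaled are not given here, and array medians were 125 to 166. The table holds 45101 probe sets and no detection calls. Of its values 1.20% were blank, and 605 of 606 negative values were on the array of control 1. Values that were blank or below the 20th percentile (53.5, or 5.74 on the log2 scale) were raised to it as a floor, so values at the floor have no order. Among the values used, Bgn in controls 4 and 5, Nid2 in mouse 2 before transformation and Sparcl1 in control 4 were blank. Where at least 3 mice of a lower group of 5, or 4 of 8, were at the floor, a difference is given as at least that size.

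Probe sets were named from the platform annotation (34958 with 1 symbol, 932 with several and 9211 with none). Each gene was read from the probe set with the highest mean. Genes above the 40th percentile (109) on 5 or more arrays were tested, whichever group those arrays came from. Of the genes called in lymphomas, Bgn, Sparc, Col5a2 and Pdgfra passed this filter only with the lymphomas counted. Their calls in lymphomas held without the filter. Each comparison was fitted on its groups alone with limma 3.58.1 in R 4.3.3, with an intensity trend and Benjamini-Hochberg adjustment over 14020 genes, and other probe sets were tested in a fit of 24377 probe sets. Each p-value sets a group difference against the spread between mice within groups, and the number of arrays limits precision. On simulated data with planted changes of 1 on the log2 scale, 86.6% were recovered before transformation against control. The share was 85.1% in lymphomas against mice before transformation and 86.6% in lymphomas against controls. For changes of 0.5 the shares were 43.3%, 26.9% and 40.3% in the same order. Changes were planted only in genes well above the floor, so recovery in the dimmer genes of the set was not measured.

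The genes and lists were chosen with earlier results of these data known. Values in every mouse are given, per comparison, for the 6 called genes with the largest change and for the gene of each role with the smallest adjusted p. Up to 3 higher and 3 lower genes with the smallest adjusted p are named per related list. Marker lists are given by their counts in lymphomas, with summed intensities for the macrophage and T-lineage lists only. Other genes given mouse by mouse were chosen after their values were seen. Alternatives were the floor, blanks, filter, normalization, probe set, shared fit, trend, replicate block, mouse-number sets, a sex covariate and each left-out mouse. Same-numbered mice correlated at r of -0.14 to 0.41 in their deviations over genes, not above 0.1 in every pair of any comparison, so the numbers were not taken to pair the mice. In lymphomas against mice before transformation every pair was positive, however, at 0.090 to 0.41. Coordinates and promoters are RefSeq's (GRCm38.p6).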

Additional observations from a re-analysis of the deposited data

Results flagged for a closer look

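Among 113 sets of values (a gene in a group) with any spread, 10 had a single mouse far from the others by Dixon's ratio. The chance rate of about 1 in 20 holds for values without a floor. Where all other mice are at the floor, a single raised value is always flagged, so the 10 are not set against that rate. Mouse 1 before transformation stood high for 3 matrix genes: Col3a1 at 580 against 185 in the next mouse, Sparc at 266 against 117 and Bgn at 126 against 58.2. Among lymphomas, number 2 was low for Lama4 (62.9, the next being 97.9) and number 8 high for Lum (103, the next being 72.3). Pdgfra was 105 in mouse 3 before transformation, with 81.6 in the next. Col15a1 was 122 in control 1, with 183 in the next. Against groups otherwise at the floor of 53.5, Vwf was 67.4 in lymphoma 2, Sparcl1 was 61.2 in mouse 5 before transformation and Pdgfrb was 54.5 in control 3.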

How the results depend on the processing

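The counts of called genes were 15, 19 and 5 in lymphomas against mice before transformation, lymphomas against controls and before transformation against controls. With mice 1 and 2 alone they were 3, 4 and 2, with fewer mice in the fit. With the sex signal as a covariate and without lymphoma 4 the first count was 2, and with all 3 groups in 1 fit the last was 3 (the cause was not tested). Leaving out 1 mouse at a time gave 10 to 19, 14 to 21 and 4 to 5 genes. The replicate block over the shared mouse numbers gave 14, 17 and 4. A block that set mice 1 and 2 apart from those numbered 3 and up gave 18, 21 and 6. In that fit 45.9%, 45.5% and 14% of all genes tested were called. Without control 1 and lymphoma 4, an alternative added after the data were seen, the counts were 11, 13 and 5. Under the other alternatives they stayed within 1.5 times of the main ones. Among differences called in the main fit or in the alternative, 6 changed sign, and differences called in neither changed sign in 50 pairs of a gene and an alternative for lymphomas against mice before transformation, 32 for lymphomas against controls and 76 before transformation against controls. The mean of all probe sets of a gene gave 0.60 for Lamc1 before transformation (limma adjusted p = 0.012), 0.86 and 1.24 for Dcn in lymphomas against mice before transformation and against controls, and 0.025 for Timp3 against controls, since their probe sets disagree. Mice 1 and 2 alone gave -0.17 for Col3a1 against mice before transformation and -0.24 for Col1a1 against controls. Genes near the floor, such as Lum, Pdgfrb and Vwf, cannot be measured below it.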
